A study of Mus musculus with 5 samples.

Results

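Complement was followed through 9 genes in Lewis lung carcinoma (LLC) tumors treated with the PARP inhibitor BMN, the azacytidine polymer PAZA or both. The genes were chosen by symbol and are the components C1RA, C1S1, C2, C4B, C3 and CFB, the inhibitor SERPING1 and the receptors C3AR1 and C5AR1. All 9 were found among the 13979 symbols that the 3 tables used here share. The samples form 5 groups of 1 library each. They are Control (no drug), PAZA (a carrier polymer with conjugated azacytidine, a DNA methyltransferase inhibitor, and no BMN), BMN (BMN673 alone), and BMN carried in PAZA at a low dose and at a high dose, labelled BMN/PAZA_Low_dose and BMN/PAZA_High_dose. The sample labels describe cultured LLC cells treated for 72 h, whereas the methods of the paper describe tumors collected from mice a day after the last treatment. Neither the labels nor the paper says how many tumors went into a library. RNA of host cells was present in every library, with 8 of 8 macrophage, 8 of 8 fibroblast and 6 of 6 endothelial markers above 0 in each. In such bulk samples, fewer cells of a type and less RNA per cell cannot be told apart.

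Complement is a cascade of blood and tissue proteins that tags targets and calls in immune cells. The proteases C1r and C1s start the classical pathway and cut C4 and C2, which together form an enzyme that cleaves C3. Factor B, the product of CFB, forms the matching enzyme of the alternative pathway, and the C1 inhibitor, the product of SERPING1, blocks C1r and C1s. The fragments C3a and C5a act on the receptors C3AR1 and C5AR1 of myeloid cells. The liver makes most plasma complement, and macrophages, fibroblasts and tumor cells also transcribe many of the components.

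Values are given as scaled FPKM, in which the deposited value of a gene per kilobase was set to a library sum of 1000000 over the shared symbols. Differences are on the log2(scaled FPKM + 1) scale, and a difference of 1 or more in size is called 2-fold. There is 1 library per group, so no value has a replicate error, no test was possible and the depth is unknown. The share of all symbols past 2-fold is printed as the background instead.

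Upstream sequence was available for 5 of the 9 genes, in RefSeq on GRCm38.p6. C2, C4B, CFB and SERPING1 had no entry. Bases after an earlier GENCODE M21 start were removed, which took 4 bases from C3AR1 and left 34 for C1RA and 48 for C5AR1, too few to show. Of 2 entries for C1S1, the longer was kept. The sequences of C3, C1S1 and C3AR1 are shown because PAZA carries an inhibitor of cytosine methylation, which in mammals falls mostly on CG pairs. They are written 5′ to 3′ on the strand of the gene, with each CG pair in capitals. The C3 sequence is chr17:57228137-57228386 on the minus strand, that of C1S1 is chr6:124542360-124542609 on the minus strand and that of C3AR1 is chr6:122856162-122856407 on the minus strand.
C3: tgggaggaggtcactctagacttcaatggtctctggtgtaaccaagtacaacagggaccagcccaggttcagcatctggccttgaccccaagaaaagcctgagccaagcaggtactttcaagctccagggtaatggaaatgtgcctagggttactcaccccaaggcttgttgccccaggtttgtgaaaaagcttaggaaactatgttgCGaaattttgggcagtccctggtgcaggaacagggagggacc
C1S1: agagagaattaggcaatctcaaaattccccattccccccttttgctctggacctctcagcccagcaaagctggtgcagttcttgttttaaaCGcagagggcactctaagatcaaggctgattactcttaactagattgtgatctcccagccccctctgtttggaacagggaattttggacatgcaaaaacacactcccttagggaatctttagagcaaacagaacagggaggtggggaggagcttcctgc
C3AR1: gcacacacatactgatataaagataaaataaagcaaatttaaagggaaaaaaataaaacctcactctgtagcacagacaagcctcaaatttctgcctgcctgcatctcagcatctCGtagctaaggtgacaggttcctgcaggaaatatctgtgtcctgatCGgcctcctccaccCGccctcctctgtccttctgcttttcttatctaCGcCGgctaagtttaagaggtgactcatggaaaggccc

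The 250 bases before C3 and before C1S1 held 1 CG pair each, and the 246 bases before C3AR1 held 5. The median over 32851 mouse promoter entries was 6 CG pairs in 250 bases, and 7.87% of them held fewer than 1. The letters TTCNNNGAA (gamma-activated site), GAAA and GAAA with any 2 bases between them (interferon response), GGG and TTTCC with any 2 bases between them (NF-kB) and TTGCNNCAA (C/EBP) were searched on both strands. A match describes the letters only. The letters searched under C/EBP do not cover all forms of that site, so the lack of a match does not show that such a site is absent. The C3AR1 sequence held 1 match to the NF-kB letters, which were present in 1.41% of all entries, and the other 2 sequences held no match to any of them. The remaining letters were present in 7.02% (gamma-activated site), 2.98% (interferon response) and 1.74% (C/EBP) of entries.

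Among the 9 genes, the receptor C3AR1 and the protease C1S1 had the highest levels in 4 of 5 libraries, with C3 above C1S1 in PAZA, and C4B had the lowest level in every library. C1S1 came first in Control and in the high dose, at 33.6 and 25.2 scaled FPKM, and C3AR1 came first in the other 3 libraries. The median of the 9 genes was 11.3 in Control, 9.79 in PAZA, 7.84 in BMN, 8.37 in the low dose and 9.13 in the high dose. These medians were close to those of all shared symbols, which lay between 7.38 and 8.94. Summed over the 9 genes, the level was 131 in Control, 120 in PAZA, 123 in BMN, 109 in the low dose and 108 in the high dose. Which library had the lowest sum depended on the scaling, since under median-of-ratios scaling BMN was lowest at 108 and the high dose stood at 121. The place of the low dose also rested on CFB and SERPING1, whose values differ between tables, since its sum was 120 with BMN and the low dose from the table of both, and 124 with PAZA and the low dose from the table of both, where PAZA had 114.

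**Figure D1:**
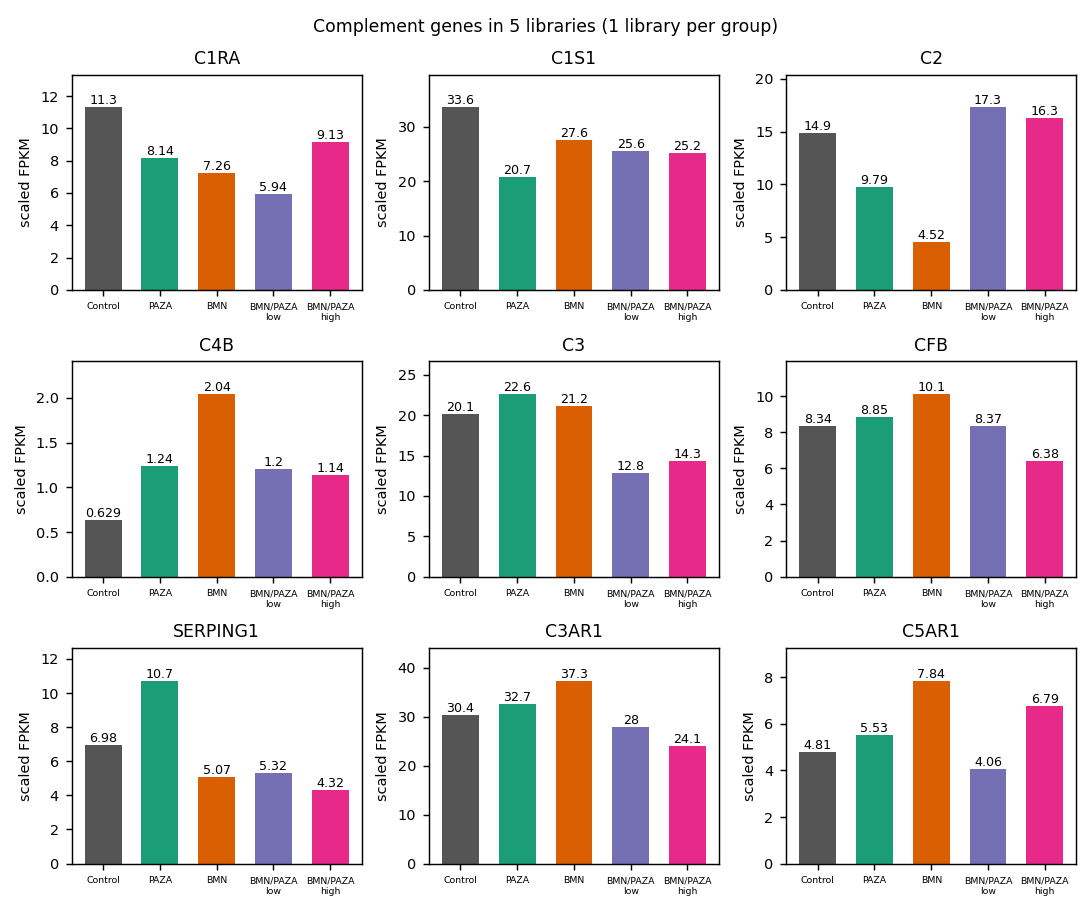
Scaled FPKM (vertical axes, each from 0) of the 9 complement genes in the 5 libraries (horizontal axes), 1 bar per library. C2 is lowest in BMN at 4.52, and C3 is lower in both BMN/PAZA libraries (12.8 and 14.3) than in the other 3 (20.1 to 22.6).

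C2 was the gene with the widest range. It encodes the protease part of the classical C3 convertase and lies on chromosome 17 of GRCm38 from 34862604 to 34898265, on the minus strand. Its level was 14.9 scaled FPKM in Control, 9.79 in PAZA, 4.52 in BMN, 17.3 in the low dose and 16.3 in the high dose. BMN alone was the low library, at 0.304 of Control, and both BMN/PAZA libraries were above Control. The log2 difference was −1.52 for BMN against Control, and 0.693% of all symbols had a lower one. For the low dose against BMN it was 1.73, with 0.468% of symbols above it, and the deposited C2 values kept one constant across all tables.

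C2 shares its locus with CFB. CFB, from 34856374 to 34862518 on the same strand, lies 85 bases from the C2 annotation and downstream of it in the direction of transcription. GENCODE M21 also places there a read-through gene, GM20547, that shares 42.8% of the exonic bases of C2 and 79.5% of those of CFB. How the reads of these exons were divided among the 3 genes is not given in the sources used here. GM20547 was listed for 4 libraries, for BMN and the low dose in the table that holds both, at 2.47 scaled FPKM in Control, 3.34 in PAZA, 2.99 in BMN and 0.356 in the low dose. Of these 4 libraries, it was lowest in the low dose, where C2 was highest. With GM20547 added to C2, which was decided once the values had been seen, the sums were 17.3, 13.1, 7.51 and 17.6 in the same order. The range of these sums was narrower than that of C4B. BMN remained the low library, with a log2 difference of −1.11 against Control, and the low dose against BMN stood at 1.13.

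C1RA and C1S1, the genes of the C1 proteases, stood below Control in all 4 treated libraries. C1RA, on chromosome 6 from 124512405 to 124523443, had 11.3 scaled FPKM in Control, 8.14 in PAZA, 7.26 in BMN, 5.94 in the low dose and 9.13 in the high dose. The low dose was its low library, with a log2 difference of −0.83. C1S1, on the same chromosome from 124530345 to 124542359, had 33.6 in Control, 20.7 in PAZA, 27.6 in BMN, 25.6 in the low dose and 25.2 in the high dose. Here PAZA was the low library, at −0.67. None of these differences reached 2-fold.

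Both genes have a near copy. Of the 50-base words in the transcripts of C1RA, 48.0% also occur in C1RB, and of those of C1S1, 21.8% occur in C1S2, so reads of a pair could have been assigned to either copy. C1RB was between 0 and 0.346 scaled FPKM and C1S2 between 1.25 and 2.83. Adding each copy to its partner left the highest over lowest ratio at 1.85 for C1RA and 1.64 for C1S1, against 1.90 and 1.62 without.

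C4B, which encodes the C4 that pairs with C2, was weakly expressed. It lies on chromosome 17 from 34728380 to 34743882 and had 0.629 scaled FPKM in Control, 1.24 in PAZA, 2.04 in BMN, 1.20 in the low dose and 1.14 in the high dose. All treated libraries were above Control, and BMN was the highest, with a log2 difference of 0.90. Its near copy C4A, with which it shares 34.6% of its 50-base words, had 1.05 in Control, was listed at 0 in PAZA, and had 0.271 in BMN, 1.40 in the low dose and 0.695 in the high dose. Of the sums of both, Control at 1.68 was no longer the lowest library, since PAZA had 1.24, and the low dose at 2.61 was above BMN at 2.31. The difference of BMN from Control was then 0.30.

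C3, the central component cleaved by both convertases, was lower in both libraries in which BMN and PAZA were combined than in the other 3. It lies on chromosome 17 from 57203970 to 57228136, minus strand. Its level was 20.1 scaled FPKM in Control, 22.6 in PAZA, 21.2 in BMN, 12.8 in the low dose and 14.3 in the high dose. The single agents stood within 0.17 of Control on the log2 scale, whereas the combinations stood at −0.61 (low dose) and −0.46 (high dose). Under median-of-ratios scaling the combinations stood at −0.53 and −0.23 and were still lowest. PAZA, at 23.3 against 19.1 in Control, was then further from Control than the high dose at 16.1. Against the single agents, the low dose was at −0.69 from BMN and −0.78 from PAZA. None of these differences reached 2-fold, and 51.5% of all symbols with a value in every library had a wider range than the 1.77 of C3.

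Among 11214 symbols with a mean of at least 1, the profiles nearest to that of C3 over the 5 libraries were those of REX2, NCDN, VCAM1, GNG2 and D16ERTD472E. Likeness was the root mean square difference of log2 profiles centred on their own means, which was 0.056 to 0.067 for these 5 genes and 0.370 at the median. VCAM1, an adhesion molecule of activated endothelium, had 6.67 scaled FPKM in Control, 7.53 in PAZA, 7.43 in BMN, 4.15 in the low dose and 5.22 in the high dose. The 6 endothelial markers did not share this order. They summed to 36.2, 63, 56.4, 44 and 44.3 in the same libraries, with 5 of 6 above Control in each combination.

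CFB and SERPING1 were the members whose deposited values disagreed between tables. In the tables used here, CFB had 8.34 scaled FPKM in Control, 8.85 in PAZA, 10.1 in BMN, 8.37 in the low dose and 6.38 in the high dose. The high dose was its low library, at −0.34 from Control. SERPING1, on chromosome 2 from 84765387 to 84775444, had 6.98 in Control, 10.7 in PAZA, 5.07 in BMN, 5.32 in the low dose and 4.32 in the high dose. In these tables PAZA stood above the other 4, at 0.55 from Control, and the 3 libraries with BMN were below Control.

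The low dose library appears in 3 tables, and after the constant between tables the other 7 genes agreed to within 0.5%. In the table with BMN, the low dose values of CFB and SERPING1 were both 2 times those of the table with the high dose. In the table with PAZA they were 1.66 and 3.15 times, and the PAZA values were 0.903 and 0.476 of those in the table with Control. The values of that table matched those of the other library elsewhere. SERPING1 was listed at 2.97 FPKM in PAZA, which was the value of the low dose library, and at 9.34 in the low dose, which was 1.5 times the PAZA value of 6.23 set to the scale of that table. CFB was listed at 4.67 in PAZA, again the low dose value, and at 7.76 in the low dose, 1.5 times the PAZA value of 5.17. Across the series, 200 of 13142 symbols disagreed in both columns of that table, and 166 of them had this relation.

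**Figure D2:**
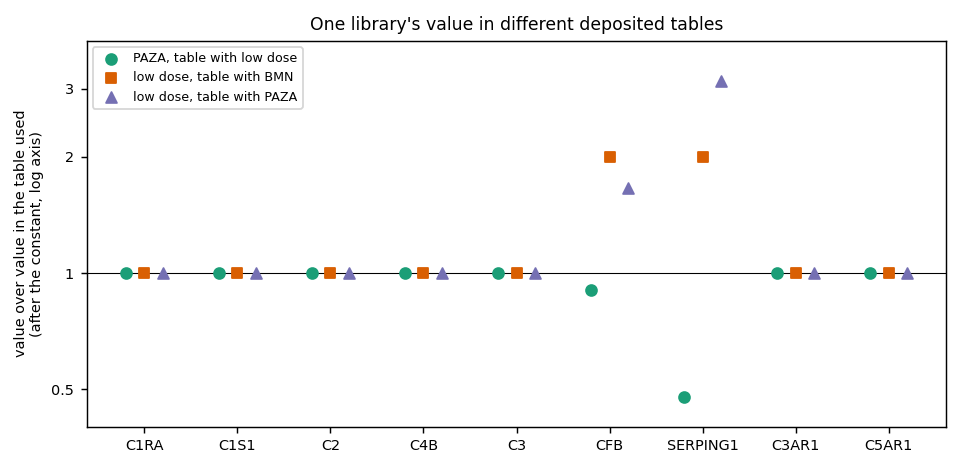
Ratio of the value of a library in another deposited table to its value in the table used here, after the constant between the tables (vertical log axis), for the 9 genes (horizontal axis). Points at 1 agree, and CFB and SERPING1 depart, with low dose ratios of 2 in the table with BMN.

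The direction of both genes in the low dose rested on the table. With BMN and the low dose from the table that holds both, SERPING1 stood at 10.5 scaled FPKM in the low dose and CFB at 16.5, and against BMN the log2 differences were 0.92 and 0.65 in place of 0.06 and −0.25. With PAZA and the low dose from the table that holds both, SERPING1 was 5.10 in PAZA and 16.5 in the low dose, a difference of 1.52 in place of −0.88. The PAZA value then lay at −0.39 from Control, below it. No order of PAZA, the low dose and Control can therefore be read for SERPING1. For CFB, the low dose against Control was 0.00 as given above and 0.90 and 0.66 in these settings.

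C3AR1 and C5AR1, the receptors of the anaphylatoxins C3a and C5a, stood above Control in PAZA and BMN under every scaling tried. C3AR1, on chromosome 6 from 122847138 to 122856161, had 30.4 scaled FPKM in Control, 32.7 in PAZA, 37.3 in BMN, 28 in the low dose and 24.1 in the high dose. It had the narrowest range of the 9 genes, with the highest library at 1.55 times the lowest. C5AR1, on chromosome 7 from 16246743 to 16259540, had 4.81 in Control, 5.53 in PAZA, 7.84 in BMN, 4.06 in the low dose and 6.79 in the high dose. C5AR1 was thus low in Control, PAZA and the low dose and higher in BMN and the high dose, with log2 differences of 0.61 and 0.42 from Control. The order of these libraries turned under median-of-ratios scaling, at 0.50 in BMN and 0.63 in the high dose, and C3AR1 was then highest in PAZA at 0.21, with BMN at 0.17. The low dose was at −0.80 from BMN and −0.62 from the high dose, and C3AR1 was at −0.40 and 0.21 in the same comparisons.

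The profiles nearest to that of C5AR1 were those of CARS, HAUS3, MED12, LPCAT4 and SPAST, with differences of 0.052 to 0.070 and a median of 0.386 over all symbols. None of these 5 is a complement gene. Among the 36 pairs of the 9 members, CFB and C3AR1 had the most alike profiles in the tables used here, at 0.06, but were at 0.43 and 0.34 with the low dose from the table with BMN and from that with PAZA. C3 and C3AR1, whose values agree between tables, were at 0.20, the most alike pair in both of these settings. The 8 pairs with C2 were the least alike in the tables used here, at 0.65 to 0.89 against a median of 0.38 over the pairs, and in these settings some pairs with CFB or SERPING1 lay as far apart.

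Against Control, 1 of the 9 genes passed 2-fold in 1 of the 4 treated libraries. In BMN, 1 gene was lower (C2) and 0 higher, where 2.25% of 13704 symbols were lower and 4.66% higher. In PAZA no gene was called, where 3.53% of symbols were lower and 3.47% higher. The low dose also had no call, against 3.54% of symbols lower and 3.65% higher, although SERPING1 passed 2-fold at 1.13 with PAZA and the low dose from the table of both, and the high dose none, against 4.95% lower and 3.20% higher. The median log2 difference of the 9 genes was 0.10 in PAZA, 0.08 in BMN, −0.20 in the low dose and −0.32 in the high dose. Under median-of-ratios scaling these were 0.21, −0.03, −0.13 and −0.09. On the scale used here the medians of all symbols were −0.07, 0.09, −0.03 and −0.17, so those of the 9 genes differed from them by at most 0.17. With PAZA and the low dose from the table of both, the median of the 9 genes in PAZA was −0.05. A call in 1 of 9 genes was not read as a property of the group.

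**Figure D3:**
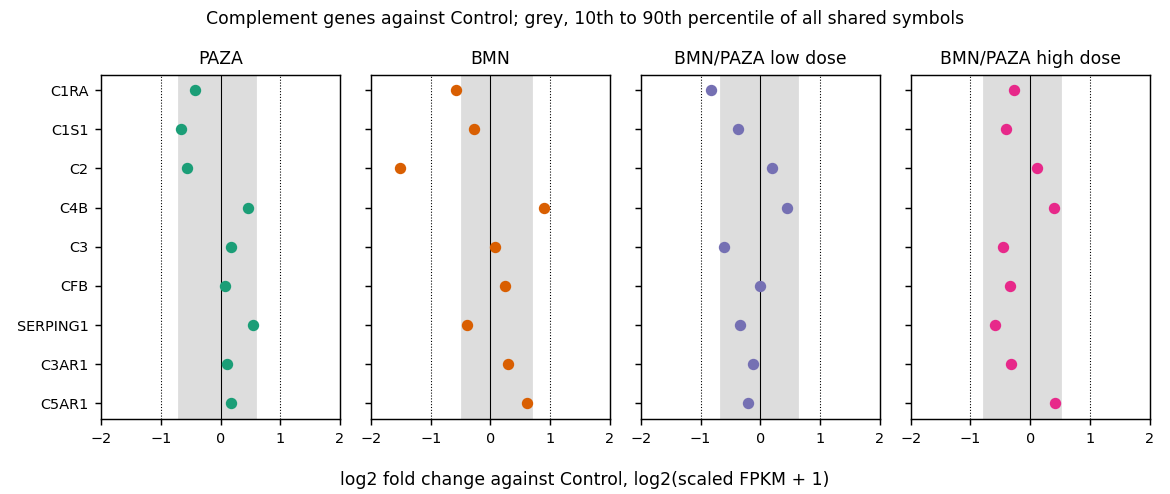
Log2 difference from Control (horizontal axis) of the 9 genes (rows) in each treated library. The grey band is the 10th to 90th percentile of all symbols, the dotted lines are 2-fold, and C2 in BMN at −1.52 is the single point beyond them.

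Between treated libraries, C2 was again the single gene past 2-fold in the tables used here. In the low dose against BMN, 1 gene was higher (C2) and 0 lower, with a background of 3.22% higher and 5.86% lower. By smaller amounts, 7 of the 9 genes were lower. Of these, C1S1 changed sign under median-of-ratios scaling and CFB stood at 0.65 with both libraries from the table that holds them. SERPING1 joined C2 past 2-fold with PAZA and the low dose from the table of both, at 16.5 scaled FPKM in the low dose against 5.07 in BMN. Against PAZA, 2 genes were higher and 7 lower, none past 2-fold, with a background of 2.45% higher and 2.78% lower. With both libraries from the table that holds them, 4 genes were higher, CFB and SERPING1 among them, and 5 lower, and SERPING1 at 1.52 passed 2-fold. Against the high dose none passed 2-fold, with 3.38% of symbols higher and 2.34% lower. In that comparison 2 genes, CFB at 1.24 and SERPING1 at 1.11, passed 2-fold with BMN and the low dose from the table of both, and 1 gene, SERPING1 at 1.72, with PAZA and the low dose from the table of both, where CFB lay just below the threshold. The medians of the 9 genes were −0.25, −0.22 and 0.05, beside −0.14, 0.03 and 0.13 for all symbols. These comparisons share the low dose library and are not independent of each other. By gene set enrichment, the paper reports immune-related sets, a complement set among them, as enriched in the low dose compared to BMN alone or PAZA. That analysis ranks many more genes than the 9 here and was not repeated.

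The rest of the complement system was taken from 47 further genes, of which 28 were in all 3 tables. The other 19 were listed in some tables only, at no more than 0.650 FPKM outside the table of both doses, and left 3 of 9 lectin pathway genes and 4 of 8 genes of C3 and the terminal pathway. C1q, which recognises antibody and dying cells, is built from 3 subunits, of which C1QA and C1QB had higher levels than any other classical pathway gene in every library. C1QA had 59.8 scaled FPKM in Control, 85.1 in PAZA, 61.1 in BMN, 62.7 in the low dose and 47.2 in the high dose, and C1QB had 77.9, 91.1, 50.7, 66.2 and 47.3. Both were highest in PAZA, as was C1QC at 14.8, under every scaling tried.

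CFD, which encodes the factor D that activates factor B and is made by adipocytes, had the widest range of the complement genes above 1 scaled FPKM in every library. It had 1.35 scaled FPKM in Control, 9.13 in PAZA, 18.7 in BMN, 4.14 in the low dose and 3.6 in the high dose. BMN was 13.8 times Control, and every treated library was above it. Its partner in the alternative pathway, properdin (CFP), was at 11.4, 9.89, 7.51, 10.7 and 10.8. CFP was lowest in BMN, where CFD was highest. The summed adipocyte markers were at 44.5 in Control, 105 in PAZA, 74.0 in BMN, 51.7 in the low dose and 63.1 in the high dose, 4 of 6 being in the 3 tables, with FABP4 as their largest part. ADIPOQ was at 0 in Control and the low dose and at most 0.739 elsewhere, LEP was at most 0.253, and CIDEC was at 1.66 in Control and at most 0.335 in the treated libraries. Their part in the CFD values was not tested.

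Calls among the 28 genes are listed as values and were not read as a property of the list. In BMN against Control, 2 of 27 genes with a value were higher (CFD and ITGB2) and 1 lower (CR2), beside 4.66% and 2.25% of all symbols. ITGB2, the shared chain of the complement receptors CR3 and CR4, was at 28.6 in Control, 37.7 in PAZA, 60.9 in BMN, 24.3 in the low dose and 33.2 in the high dose. ITGAM, the CR3 partner chain, was between 41.2 and 57.3. CR2, a receptor of B cells, was at 1.89 in Control and at most 0.216 in every treated library, and the other 3 B cell markers in the tables were low and did not share one order. CD79A was at 1.97 in Control and at most 0.954 elsewhere, CD79B was highest in PAZA at 0.718, and PAX5 was highest in the low dose at 0.741 against 0.161 in Control. In PAZA, 1 of 28 was higher (CFD) and 2 lower (CR2, and C4A, which was listed at 0 there), beside 3.47% and 3.53% of all symbols. In the low dose against Control, 1 of 27 was higher (CFD) and 1 lower (CR2), beside 3.65% and 3.54%, and in the high dose 1 of 28 was lower (CR2), beside 4.95%. In the low dose against BMN, 3 of 26 were lower (FCNA, CFD and ITGB2), beside 5.86%. Against PAZA 1 of 27 was higher (C4A), beside 2.45%, and against the high dose 1 of 28 was lower (C9, listed at 0 in the low dose), beside 2.34%. Under median-of-ratios scaling, ITGB2 in BMN against Control and FCNA in the low dose against BMN were no longer called. Calls gained were CFD higher in the high dose and CD59A higher in PAZA against Control, and ITGAX lower against PAZA and FCNA lower against the high dose in the low dose. More calls were gained when scaled without the 100 highest symbols. In the low dose against Control, CD46 then joined CFD as higher, and CD55 and ITGAX were among those that joined CR2 as lower.

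**Figure D4:**
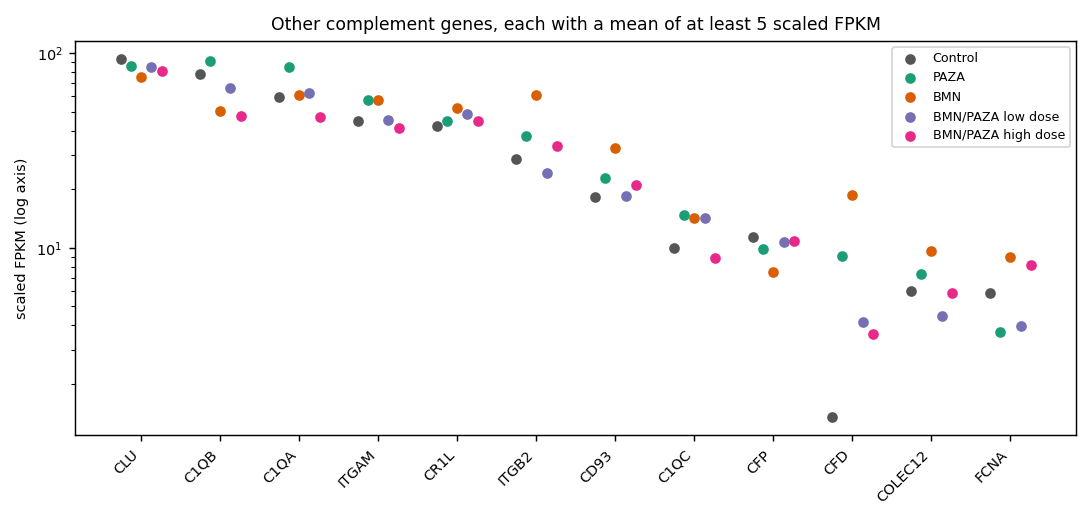
Scaled FPKM (vertical log axis) of complement genes outside the 9, each with a mean of at least 5 (horizontal axis), 1 point per library. CFD spans from 1.35 in Control to 18.7 in BMN, whereas CLU spans from 75.3 to 93.6.

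Of the genes that guard cells from complement, CLU and CR1L were the most abundant. CLU, the soluble inhibitor clusterin, was between 75.3 and 93.6 scaled FPKM, and CR1L, the mouse membrane regulator Crry, between 42.3 and 52.3. CD55, which dissociates the convertases, was 5.74 in Control, 4 in PAZA, 4.33 in BMN, 2.46 in the low dose and 2.39 in the high dose. Like C3, CD55 was lowest in both combination libraries. CD46 and CD59A, further membrane regulators, were at 1.42 or less and 1.90 or less. The receptor C5AR2 was at most 0.703 in every library.

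Markers of cells that transcribe complement also differed between the libraries. The 8 macrophage markers summed to 289 scaled FPKM in Control, 280 in PAZA, 393 in BMN, 309 in the low dose and 247 in the high dose. MRC1 made up most of these sums, at 156 to 244. In BMN, where the sum was highest under every scaling tried, 8 of 8 markers were above Control. In PAZA 5 of 8 were above Control, although the sum was below it. Under median-of-ratios scaling the PAZA sum turned to 287 against 276 in Control, and the high dose sum also turned to slightly above Control. Fibroblast markers summed to 316, 539, 822, 320 and 355, and mast cell markers to 23.8, 28.1, 101, 33.7 and 17.4, both highest in BMN. Neutrophil markers, of which 6 of 8 were listed in the 3 tables, summed to 76.1, 128, 68.6, 127 and 236. The high dose sum was mostly S100A8 at 132 and S100A9 at 93.2, whereas CSF3R at 2.64 and MMP8 at 3.18 were close to Control at 2.71 and 3.36, CXCR2 was between 2.45 and 5, and RETNLG, which passed 2-fold in the high dose with S100A8 and S100A9, was at 0 in Control and BMN, 1.15 in PAZA and 0.609 in the low dose.

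Markers of muscle and skin differed more widely. Skeletal muscle markers summed to 12.8 in Control, 42.5 in PAZA, 178 in BMN, 11.9 in the low dose and 214 in the high dose, and keratinocyte markers to 68.5, 8.09, 205, 1.84 and 12.8. The muscle sum was highest in BMN and the high dose, as was the level of C5AR1, and it was also above Control in PAZA, at 3.31 times. Of the hepatocyte markers, 1 of 8 was in all 3 tables, ALB, at no more than 3.62 scaled FPKM. T cell markers summed to between 3.85 and 15.2, and B cell markers to between 0.354 and 4.27. The part of these cells in the levels of the 9 genes was not tested.

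Genes of signals under which complement transcription is known to increase were measured beside them. The 11 interferon-inducible genes summed to 814 scaled FPKM in Control, 437 in PAZA, 433 in BMN, 315 in the low dose and 322 in the high dose, so every treated library was below Control and both combinations were lowest. The interferon-inducible sum was lowest in the libraries in which C3 and CD55 were also lowest, whereas C2 was highest there. The 10 acute-phase and NF-kB genes summed to 270, 268, 239, 203 and 181. NFKBIA made up the largest part of this order, at 133 in Control, 83.8 in the low dose and 70.7 in the high dose. The median log2 difference of the 10 genes from Control was −0.02 in the low dose, with 4 higher and 6 lower, and −0.04 in the high dose, with 5 higher and 5 lower. SAA3, an acute-phase gene, was at 6.66 in Control, 26 in PAZA, 9.56 in BMN, 4.65 in the low dose and 12.9 in the high dose. Like C3 it was highest in PAZA and lowest in the low dose, but in the high dose it was above Control, where C3 was below. SAA3 was picked after the values were seen, and no other gene of its list was both highest in PAZA and lowest in the low dose. The part of these genes in the level of C3 was not tested.

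**Figure D5:**
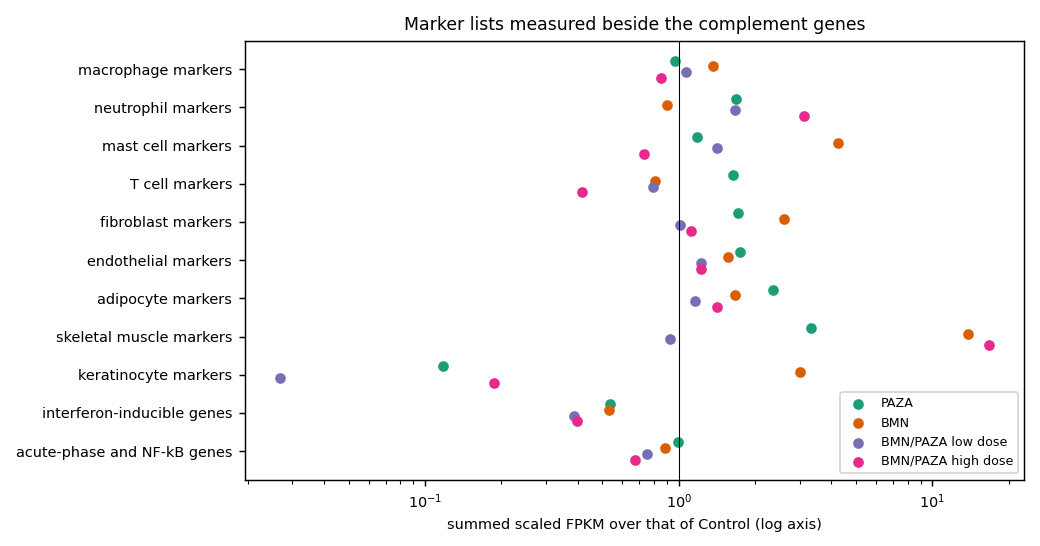
Summed scaled FPKM of each marker list (rows) over that of Control (horizontal log axis), 1 point per treated library. The interferon-inducible sum is at 0.537 (PAZA), 0.532 (BMN), 0.388 (low dose) and 0.396 (high dose) of Control, and mast cell markers in BMN are at 4.23.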

How the data were processed

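RNA from 5 groups with 1 library each was sequenced, and per the submitters' processing notes HISAT2, StringTie and GRCm38 were used, with versions and annotation not given in the sources used here. The authors deposited 5 tables of 2 libraries each, with values that carry no unit name and were read here as FPKM from their form. Counts are not given, so depth and counting error are unknown. Control and PAZA were taken from their own table, BMN and the high dose from theirs, and the low dose from the table of both doses, where its sum over the shared symbols was 3.48 times that of Control. Of repeated symbols (15 in each table with the high dose), the row of highest mean was kept. Each library was scaled to 1000000 over the shared symbols, and differences used a pseudocount of 1. A value more than 0.5% from the median ratio between tables was called a disagreement. Positions are from GENCODE M21 (GRCm38). With 1 library per group no test was run. Genes named are the 9 members, further complement genes past 2-fold with at least 1 scaled FPKM, near copies, the 5 nearest profiles of C3 and C5AR1, and marker lists. C1QA, C1QB, C1QC, FABP4, ADIPOQ, CIDEC, LEP, ALB, CD79A, CD79B, PAX5, S100A8, S100A9, CSF3R, MMP8, CXCR2, RETNLG, MRC1, ITGAX, NFKBIA, SAA3, CLU, CR1L, CD46, CD59A, CD55, ITGAM, CFP and C5AR2 were named after their values were seen. Another complement gene of the lists is not reported here by name. The members, lists and rules were chosen with earlier results of these data known. Calls and table disagreements were checked on simulated data. Python 3.11.15, numpy 2.4.6, pandas 2.3.3 and matplotlib 3.10.9 were used.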

Additional observations from a re-analysis of the deposited data

Results flagged for a closer look

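C5AR1 moved in opposite directions from Control at the 2 combination doses. The log2 difference was −0.20 in the low dose and 0.42 in the high dose, and the difference between them was −0.62. With 1 library per dose, this difference was not tested.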

How the results depend on the processing

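No paired analysis was possible because there was 1 library per group. Of 735 values under an alternative, 689 stayed within 0.5 on the log2 scale, or within 1.5 times for counts, 46 did not, and 0 reversed a call. These include values that a setting could hardly move, such as the other genes in the setting without CFB and SERPING1. A change of sign was counted as a reversal only for a value past 2-fold. That of SERPING1 in the low dose against PAZA, with both libraries from the table that holds them, was therefore not counted. The number of genes past 2-fold in BMN against Control was 2 with a pseudocount of 0.1 and 2 when scaled without the 100 highest symbols, where C4B joined C2. With PAZA and the low dose from the table of both, it was 1 for the low dose against Control, 2 against BMN, 1 against PAZA and 1 against the high dose. With BMN and the low dose from the table of both, it was 2 for the low dose against the high dose. As deposited, it was 1 for the low dose against PAZA and 6 against the high dose, with a median of 1.66, since the low dose column of that table is on another scale. C2 in BMN against Control ranged from −1.71 to −1.11 and stayed past 2-fold in every setting. Median-of-ratios scaling moved the median of all symbols by 0.18 for the high dose against Control, 0.15 for the low dose against BMN and −0.12 against the high dose. It took the share of symbols above Control in the high dose from 35.5% to 50.3%, above BMN in the low dose from 39.3% to 51.4%, and above the high dose in the low dose from 65.5% to 51.0%. Under it C3 in BMN against Control went from 0.08 to −0.03, and C1S1 in the low dose against BMN from −0.10 to 0.09. C2, C4B and C1S1 in the low dose against the high dose also changed sign, all at under 0.15 in size. Settings without CFB and SERPING1 and with GM20547 added to C2 were chosen after seeing the data.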
